A study of Mus musculus with 6 samples.

Results

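The genes described here are the Hes and Hey repressors and the nuclear partners of Notch, measured by RNA sequencing in HL-1 cells with and without silencing of the long noncoding RNA Malat1. Of 10 genes listed by symbol (Hey1, Hey2, Heyl, Hes1, Hes5, Hes6, Rbpj, Maml1, Maml2, and Nrarp), 9 were among the 21269 genes of the deposited table, and Hes5 was not analysed here. Hey2 rose 2.67-fold in LNA Malat1 (log2 scale with 1 added to each count) and was the 1 gene of the 9 to pass both the test and a 1.5-fold minimum. Maml2 fell by a smaller amount, to 0.80 of LNA Control on the same scale, and Nrarp had higher counts in LNA Malat1 that missed the threshold. Hes1, Hes6, Hey1, Heyl, Rbpj, and Maml1 did not pass the test.

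When a Notch receptor is cut after binding its ligand, its intracellular domain enters the nucleus and joins the DNA-binding protein RBPJ and a Mastermind coactivator (Maml1 and Maml2 are members of that family). The complex turns on genes of the Hes and Hey families, which encode basic helix-loop-helix (bHLH) proteins that repress transcription, and Nrarp, an ankyrin repeat protein that binds the complex and limits it. Hes6 is an unusual member that opposes Hes1. In the embryonic heart, Hey1 is found in the atria and Hey2 in the ventricles, and Hey2 is known for keeping atrial genes low in ventricular muscle.

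HL-1 is an established line derived from mouse atrial cardiomyocytes. The study asked which molecular processes change in these cells once Malat1 is lost. Both groups were transfected with 50 nM of a locked nucleic acid (LNA) gapmer, a short DNA strand whose modified ends strengthen its pairing and which directs RNase H to its target, 24 hours after seeding. LNA Control received the control gapmer and LNA Malat1 the gapmer against Malat1, and RNA was collected 48 hours later by the sample records, with 3 libraries per group.

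The unit throughout is the normalized count, a read count per gene that the authors divided by 1 factor per library and rounded. The sum over all genes ran from 4831007 to 4921406 in LNA Control and from 4758777 to 4762957 in LNA Malat1, and the recovered reads on genes numbered 4511897 to 5594306 and 4789824 to 5302229. LNA Malat1 replicates 1 and 3 differed by less than the sampling noise over all genes compared (chi-square of 0.95 per gene, against 1.77 to 4.18 between LNA Control replicates). Replicates 1 and 2 were nearly as close (1.01) and replicates 2 and 3 less so (1.16). Among the most abundant genes no pair was within the noise (1.11 per gene for replicates 1 and 3, 1.66 for 1 and 2, 2.05 for 2 and 3). As a caution, replicates 1 and 3 enter every mean ± SD as 1 sample, so that n = 2 for LNA Malat1, whereas fold changes, intervals, and p-values come from a limma fit to all 6 libraries unless stated. The labels do not say that replicates were separate cultures, so p-values measure only the spread between these libraries, which may be technical. Malat1 itself stood at 5051, 5197, and 4369 normalized counts in the LNA Control libraries, and the silenced libraries had 2833, 2792, and 2732 (log2 fold change -0.80 with an SE of 0.07, limma adjusted p = 7.5e-06). In the list of atrial cardiomyocyte markers, Tnnt2 (647 to 746) and Actc1 (409 to 475) were high. Both are sarcomere genes of ventricular muscle as well. Myl4 (30 to 49) and Myl7 (18 to 32) were low. Myh6 (0 to 7) and Gja5 (0 to 4) were near 0 in all libraries. Nppa and Sln were not analysed here.

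The 15650 genes averaging 5 or more normalized counts entered the limma test as log2(normalized count + 1), a scale that understates the fold change of low genes. Called genes had a Benjamini-Hochberg adjusted p no greater than 0.05 together with a change of 1.5-fold or more. Of all genes tested, 10.9% were called, 8.00% as higher in LNA Malat1 and 2.92% as lower. All 9 genes of the set reached the minimum count, Heyl exactly at it with a mean of 5.0. Heyl averaged 3.7 in LNA Control, so it entered the test only through its LNA Malat1 counts. Of the 9, 1 was called (Hey2, higher), a share of 11.1%. At the adjusted p alone 2 of 9 passed, Hey2 higher and Maml2 lower, where 28.3% of all genes did. The median log2 fold change of the 9 genes was 0.07, against 0.02 over all genes tested. The libraries of the groups did not overlap for 3 of the 9 genes (Hey2, Maml2, and Nrarp), and for 41.3% of all genes tested.

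Promoter sequence is shown for the 3 genes whose groups did not overlap, because RBPJ and bHLH repressors act through short DNA words. The RefSeq windows (GRCm38.p6, the mm10 build of the files) run from 250 bases before the start site to 20 bases after it, 5′ to 3′ on the strand of the gene, and capitals mark the core RBPJ word TGGGAA or its reverse complement TTCCCA. Hey2 is at chr10:30842764-30843033 on the minus strand, Nrarp at chr2:25180508-25180777 on the plus strand, and the first of the 2 Maml2 windows at chr9:13297708-13297977 on the plus strand.
Hey2: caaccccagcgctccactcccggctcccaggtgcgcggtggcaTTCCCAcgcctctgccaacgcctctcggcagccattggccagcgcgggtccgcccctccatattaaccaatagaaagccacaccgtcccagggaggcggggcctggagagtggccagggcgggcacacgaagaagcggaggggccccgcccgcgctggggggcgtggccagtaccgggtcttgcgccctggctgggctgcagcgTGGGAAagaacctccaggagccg
Nrarp: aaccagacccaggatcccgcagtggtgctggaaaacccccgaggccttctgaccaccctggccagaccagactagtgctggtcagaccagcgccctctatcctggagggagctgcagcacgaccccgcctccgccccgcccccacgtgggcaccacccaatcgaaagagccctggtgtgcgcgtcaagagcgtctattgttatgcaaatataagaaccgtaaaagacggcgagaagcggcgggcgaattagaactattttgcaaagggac
Maml2: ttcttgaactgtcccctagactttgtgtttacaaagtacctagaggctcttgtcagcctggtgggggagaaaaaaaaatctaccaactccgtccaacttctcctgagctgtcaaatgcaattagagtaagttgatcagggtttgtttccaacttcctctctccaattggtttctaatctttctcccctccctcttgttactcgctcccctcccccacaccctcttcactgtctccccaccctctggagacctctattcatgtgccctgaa

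The Hey2 window holds 2 matches to the longer word GTGGGAA or its reverse complement TTCCCAC, the first beginning 207 bases before the start site and the second 4 bases before it, so that the second crosses the start. Of 32851 RefSeq promoter windows of the same length, 5.75% hold at least 1 such match and 0.207% at least 2. The Nrarp window and the first Maml2 window have no match to TGGGAA on either strand, which 23.1% of all windows hold. The Nrarp window contains CACGTG, the palindromic E-box, 108 bases before its start, a word found in 6.57% of all windows. It also has 2 matches to CACNAG or CTNGTG, the N-box bound by Hes proteins, 179 and 79 bases before the start, where 39.0% of all windows hold at least 1, and the first Maml2 window has 1. The window of Hes5, whose counts were not analysed here, likewise holds 2 matches to the longer word or its reverse complement, 226 and 83 bases before the start, so the pair is not particular to Hey2 among these genes. TGGGAA or TTCCCA also occurs at 2 places in the Rbpj windows, which overlap each other and share 1 of these places, and at 1 place in the second Maml2 window, and not in those of Hes6 or Maml1. No window was available for Hes1, Hey1, or Heyl, so they could not be compared with Hey2. A match is a string of letters and not a measured binding site.

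Hey2 (ENSMUSG00000019789; mm10, chromosome 10, positions 30832359 to 30842801, minus strand, 4 merged exons) stood at 16, 21, and 18 normalized counts in the LNA Control libraries, in the order of their replicate numbers, and at 51, 53, and 47 in those of LNA Malat1. Every LNA Malat1 library lay above every LNA Control library, with more than a doubling between the nearest libraries. The LNA Control mean was 18.3 ± 2.5 (SD, n = 3) and that of LNA Malat1 51.0 ± 2.8 (SD, n = 2), for a log2 fold change of 1.42 (95% interval 1.01 to 1.82, limma adjusted p = 0.00013). With LNA Malat1 replicates 1 and 3 as 1 sample in the fit, the log2 fold change was 1.43 (limma adjusted p = 0.0019). These values rest on 55 recovered reads in LNA Control (exact Poisson 95% interval 41.4 to 71.6) and 158 in LNA Malat1 (134 to 185), intervals that cover counting error only. Low counts tended to be higher in LNA Malat1 across the table, so the gene was set beside those of like level. Among the 1835 genes with a mean from 20 to below 50, the median log2 fold change was 0.23, the 90th percentile was 0.97, and 19.6% were called higher. Hey2 lay 1.19 above that median on the log2 scale. It was called in all 15 alternative fits that could include it and under the 3 other thresholds tried, with a log2 fold change of 1.16 to 1.51, the lowest under quantile normalization. No annotated gene overlaps its exons.

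**Figure D1:**
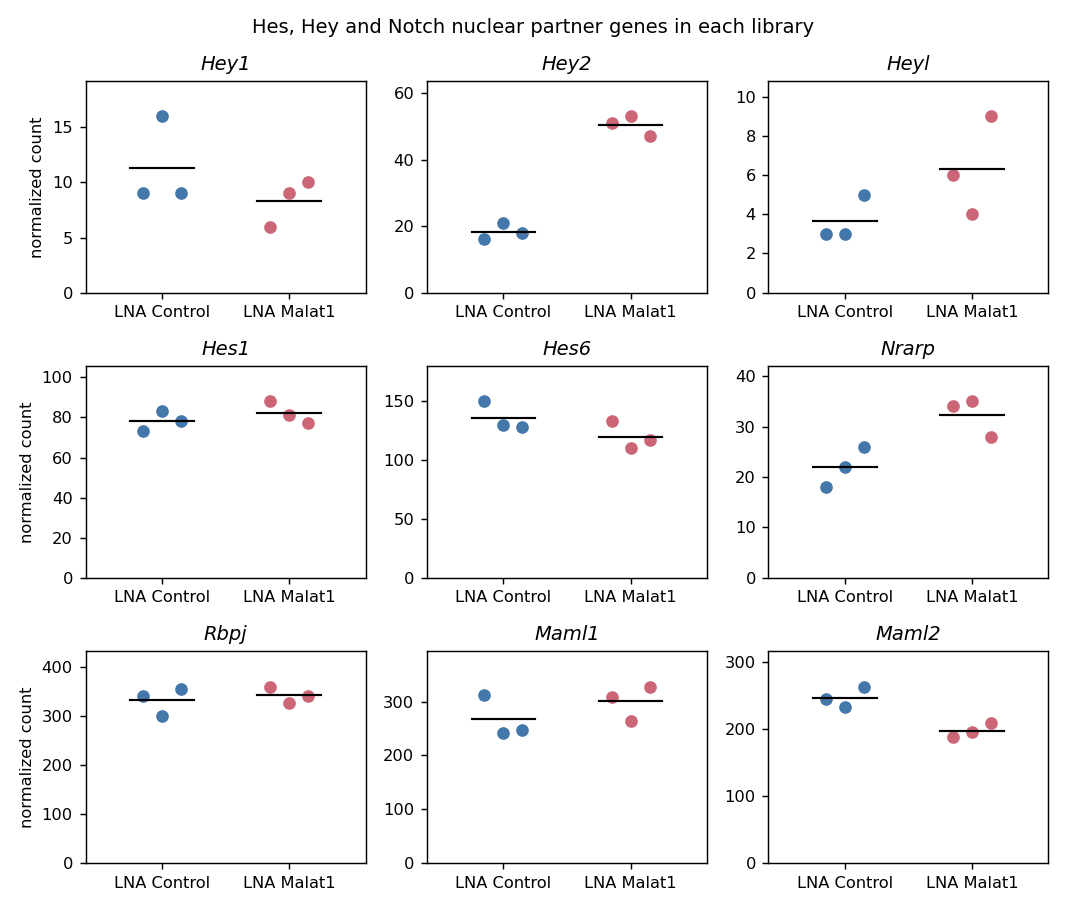
Normalized count (vertical axes, linear from 0, scaled for each gene) of the 9 genes in each library, with LNA Control in blue and LNA Malat1 in red; each point is 1 library, in replicate order, and the line is the mean of the 3 libraries. The LNA Malat1 points lie above all LNA Control points for Hey2 (47 to 53 against 16 to 21) and Nrarp (28 to 35 against 18 to 26) and below them for Maml2 (188 to 208 against 232 to 263), and they overlap for the other 6 genes.

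The other Hey genes were at the limit of what this depth resolves. Hey1 (chromosome 3, positions 8663359 to 8667256), the atrial member of the family in the embryo, stood at 9, 16, and 9 normalized counts in the LNA Control libraries and at 6, 9, and 10 in those of LNA Malat1. LNA Control replicate 2 stood highest and the other 5 libraries were mixed. Its log2 fold change was -0.38 (95% interval -1.13 to 0.37, limma adjusted p = 0.44), an interval that reaches from a fall of more than 2-fold to a small rise. That estimate was -0.13 without LNA Control replicate 2, -0.19 without LNA Malat1 replicate 1, and -0.81 under quantile normalization. The estimate of -0.38 lay 0.82 below the median of 0.43 among the 1763 genes with a mean from 5 to below 10. The 10th percentile of those genes was -0.40. Heyl (chromosome 4, positions 123233556 to 123249875), known from smooth muscle, stood at 3, 3, and 5 counts in the LNA Control libraries and at 6, 4, and 9 in those of LNA Malat1. The groups overlapped, and the log2 fold change of 0.62 (95% interval -0.32 to 1.56, limma adjusted p = 0.31) is near the median of 0.43 among the 1763 genes with a mean from 5 to below 10. Recovered reads of LNA Control and LNA Malat1 numbered 12 and 20 for Heyl and 33 and 26 for Hey1.

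Hey2 took a larger part of the Hey counts in the LNA Malat1 libraries. The counts of Hey1, Hey2, and Heyl summed to 28, 40, and 32 in LNA Control and to 63, 66, and 66 in LNA Malat1. Hey2 made up 57.1%, 52.5%, and 56.2% of that sum in LNA Control, against 81.0%, 80.3%, and 71.2% in LNA Malat1. The ranges did not overlap, and the smallest gap was between LNA Control replicate 1 and LNA Malat1 replicate 3. A ratio of 2 genes within a library hardly depends on the library's factor. The log2 ratio of Hey2 to Hey1, with 1 added to each count, was 0.77, 0.37, and 0.93 in LNA Control, while LNA Malat1 gave 2.89, 2.43, and 2.13, a difference of 1.80 (exact permutation test, two-sided, p = 0.10, the smallest that 3 against 3 libraries can give; 0.15 adjusted over the 6 pairs of genes compared). The log2 ratio of Hey2 to Heyl overlapped between the groups (1.66 to 2.46 against 2.26 to 3.43, a difference of 0.79, exact permutation p = 0.20).

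**Figure D2:**
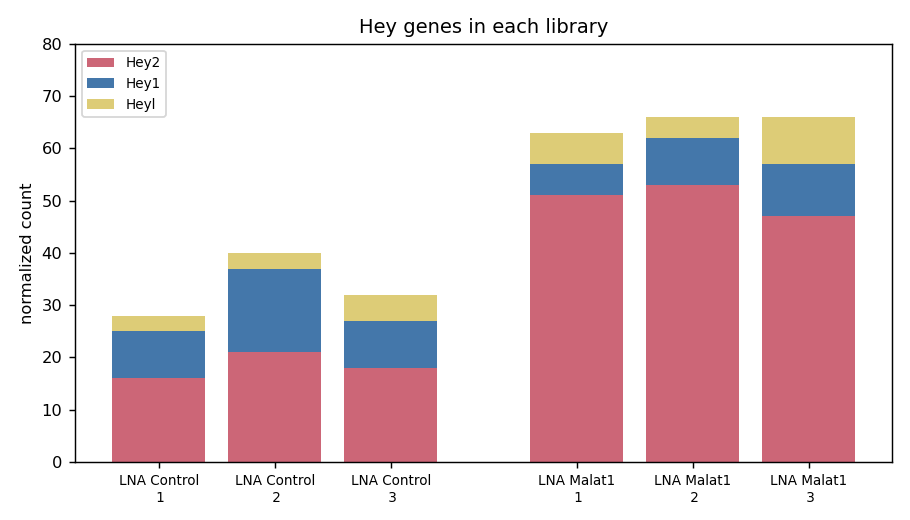
Normalized counts of the 3 Hey genes stacked for each library (vertical axis, linear from 0), with Hey2 in red at the base, Hey1 in blue, and Heyl in yellow. The Hey2 blocks reach 16 to 21 in LNA Control but 47 to 53 in LNA Malat1, while Hey1 stays between 6 and 16 and Heyl between 3 and 9.

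Neither Hes gene passed the test. Hes1 (chromosome 16, positions 30064384 to 30067796), the best known direct target of Notch, stood at 73, 83, and 78 normalized counts in the LNA Control libraries and at 88, 81, and 77 in those of LNA Malat1. The 2 groups covered nearly the same range. Its log2 fold change was 0.07 (95% interval -0.17 to 0.31, limma adjusted p = 0.68), so a rise of the size of Hey2 lies outside its interval. Hes6 (chromosome 1, positions 91411483 to 91414038) stood at 150, 130, and 128 counts in the LNA Control libraries and at 133, 110, and 117 in those of LNA Malat1. The libraries of LNA Malat1 lay lower on average, and replicate 1 was the highest in both groups. The log2 fold change was -0.18 (95% interval -0.40 to 0.04, limma adjusted p = 0.20). The log2 ratio of Hes1 to Hes6 was -1.03, -0.64, and -0.71 in LNA Control, while LNA Malat1 gave -0.59, -0.44, and -0.60, without overlap (difference 0.25, exact permutation p = 0.10, 0.15 adjusted), and the difference was 0.13 without LNA Control replicate 1.

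Nrarp (chromosome 2, positions 25180758 to 25183339), a feedback inhibitor of the Notch complex encoded by a single exon, stood at 18, 22, and 26 normalized counts in the LNA Control libraries and at 34, 35, and 28 in those of LNA Malat1. The groups did not overlap, although LNA Control replicate 3 and LNA Malat1 replicate 3 were only 2 counts apart. LNA Control averaged 22.0 ± 4.0 (SD, n = 3) while LNA Malat1 averaged 33.0 ± 2.8 (SD, n = 2), for a log2 fold change of 0.54 (95% interval 0.09 to 1.00) with a limma adjusted p of 0.072, or 0.117 with LNA Malat1 replicates 1 and 3 as 1 sample. Nrarp lay 0.31 above the median log2 fold change of 0.23 among the 1835 genes with a mean from 20 to below 50. The 90th percentile of those genes was 0.97. Without LNA Control replicate 3 Nrarp passed both thresholds (log2 fold change 0.67, limma adjusted p = 0.037), and under quantile normalization its log2 fold change was 0.25. The annotated antisense gene Gm38287 covers 79.4% of its exonic length. Reads on both genes were left out of the counts, and the sources used here do not say whether the counting separated the strands. Gm38287 had 0 to 2 normalized counts in LNA Control and 1 to 4 in LNA Malat1.

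Of the proteins that carry the Notch signal on DNA, the coactivator gene Maml2 fell and the others did not pass the test. Maml2 (chromosome 9, positions 13297957 to 13709388, the longest gene of the set at 411 kb) stood at 245, 232, and 263 normalized counts in the LNA Control libraries and at 188, 195, and 208 in those of LNA Malat1. Each LNA Malat1 library lay below each LNA Control library. The LNA Control mean was 246.7 ± 15.6 (SD, n = 3) and that of LNA Malat1 196.5 ± 2.1 (SD, n = 2). Averaging replicates 1 and 3, the lowest and highest LNA Malat1 libraries, makes that SD small beside their range of 188 to 208. With these replicates as 1 sample in the fit, the log2 fold change was -0.32 (limma adjusted p = 0.018). The fit to all 6 libraries gave a log2 fold change of -0.32 (95% interval -0.48 to -0.16, limma adjusted p = 0.0057). This is under the 1.5-fold minimum and 0.28 below the median of the 3610 genes with a mean from 200 to below 500. The adjusted p stayed under the threshold in all 16 alternative fits, at 0.037 or less, but not when a change of over 1.5-fold was tested.

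Maml1 (chromosome 11, positions 50255634 to 50292311) stood at 313, 241, and 248 counts in the LNA Control libraries and at 309, 264, and 328 in those of LNA Malat1. LNA Control replicate 1 stood among the LNA Malat1 libraries and the other 2 LNA Control libraries stood below them. The log2 fold change was 0.17 (95% interval -0.05 to 0.39, limma adjusted p = 0.23), and without LNA Control replicate 1 it was 0.29 (limma adjusted p = 0.013). The log2 ratio of Maml1 to Maml2 was 0.35, 0.05, and -0.08 in LNA Control, while LNA Malat1 gave 0.71, 0.44, and 0.65. The ranges did not overlap, and the difference was 0.49 (exact permutation p = 0.10, 0.15 adjusted). The third Mastermind gene, Maml3, had 30 to 35 counts in LNA Control and 29 to 34 in LNA Malat1.

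Rbpj (chromosome 5, positions 53466152 to 53657362), which encodes the DNA-binding protein shared by all Notch receptors, stood at 340, 299, and 356 counts in the LNA Control libraries and at 360, 327, and 341 in those of LNA Malat1. The groups overlapped over most of their range. Its log2 fold change of 0.05 (95% interval -0.11 to 0.21, limma adjusted p = 0.64) has the narrowest interval of the 9 genes. The log2 ratio of Hey2 to Rbpj ran from -4.33 to -3.77 in LNA Control and from -2.83 to -2.60 in LNA Malat1 (difference 1.37, exact permutation p = 0.10, 0.15 adjusted). The ratio of Hey1 to Hes1, the sixth pair compared, overlapped between the groups (difference -0.45, exact permutation p = 0.40).

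**Figure D3:**
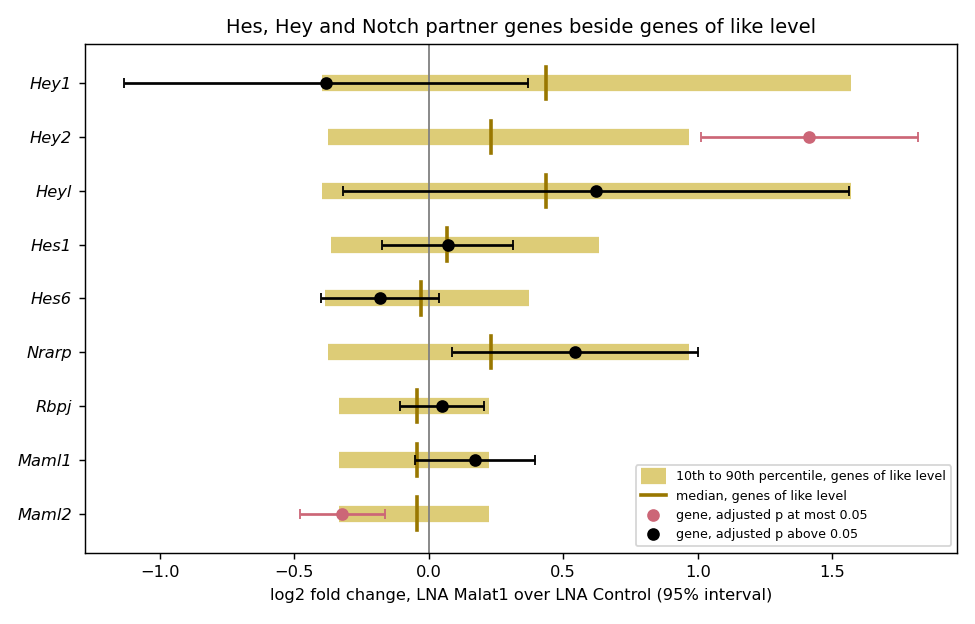
Log2 fold change of LNA Malat1 over LNA Control (horizontal axis) for the 9 genes, with points for the limma estimate, bars for its 95% interval, and red where that p was no greater than 0.05 after adjustment; yellow bands span the 10th to 90th percentile of all tested genes of like mean count, with their median as a dark tick. Hey2, at 1.42, is the 1 estimate to the right of its band, and Maml2, at -0.32, lies inside the lower edge of a band that begins at -0.33.

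Levels between genes were compared as normalized counts per kilobase of merged exons, taken as the median of the LNA Control libraries. Hes6 was highest at 71.9, followed by Maml1 at 44.9, Hes1 at 38.3, Maml2 at 37.1, and Rbpj at 26.7. The order of Hes1 and Maml2 is not resolved, since their LNA Control ranges overlapped (35.8 to 40.7 and 35.2 to 39.9). Nrarp was at 8.5, Hey2 at 3.9, Hey1 at 2.8, and Heyl at 0.59. Hey2 and Hey1 overlapped in LNA Control (3.5 to 4.6 against 2.8 to 4.9) and were apart in LNA Malat1 (10.2 to 11.5 against 1.8 to 3.1). In LNA Malat1 the range of Hey2 overlapped that of Nrarp (10.8 to 13.6), which it did not in LNA Control (7.0 to 10.1 for Nrarp). Exonic length counts every annotated exon, whether or not HL-1 cells use it, which lowers the value of a gene with many transcripts such as Rbpj.

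The genes whose log2 values ran most like those of Hey2 over the 6 libraries, among 10490 genes with a mean of at least 50, were Crim1 (Pearson's r = 0.998), Cxcl10 (0.995), and Zfp959 (0.995). Crim1, which encodes a membrane protein that binds bone morphogenetic proteins, stood at 48, 66, and 54 counts in the LNA Control libraries and at 138, 147, and 136 in those of LNA Malat1. Of the 10490 genes, 309 had an r of at least 0.95 with Hey2. For Maml2 the closest were Adam10, the protease that makes the first cut of an activated Notch receptor (r = 0.997), Zfp251 (0.997), and Rbm24 (0.997), and 195 genes reached 0.95. Adam10 stood at 912, 878, and 966 counts in the LNA Control libraries and at 746, 781, and 802 in those of LNA Malat1 (log2 fold change -0.24). These correlations describe 6 libraries in 2 groups and share the same library factors. The genes named were picked for following Hey2 or Maml2, whose groups did not overlap. A difference between the groups in them is therefore no separate result.

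The genes around these regulators were counted list by list. Of all genes tested, 14.3% passed the adjusted p as higher and 14.0% as lower. Of 25 other nuclear cofactors of RBPJ, 2 passed as higher and 8 as lower, with a median log2 fold change of -0.04, and 0 reached 1.5-fold. Those lower were the corepressor genes Ncor1 (-0.21), Ctbp1 (-0.19), and Ctbp2 (-0.41), the Groucho family genes Tle1 (-0.51), Tle4 (-0.31), and Tle5 (-0.44), the acetyltransferase gene Kat2b (-0.25), and Fbxw7 (-0.37), a ubiquitin ligase subunit that marks the Notch intracellular domain for degradation. The 2 higher were the corepressor gene Spen (0.30) and the kinase gene Cdk8 (0.20). The most changed of them by fold, Tle1, which encodes a corepressor recruited by Hes proteins, stood at 99, 93, and 80 counts in the LNA Control libraries and at 63, 67, and 59 in those of LNA Malat1 (limma adjusted p = 0.0076). Spen, like Maml1, was highest in LNA Control replicate 1 within that group (1413, against 1135 and 1084), with 1619, 1320, and 1520 in LNA Malat1.

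Of the 6 other Hes and related bHLH genes, 3 were tested, and 2 of them passed as lower, Bhlhe41 (log2 fold change -0.55, limma adjusted p = 0.0003) and Bhlhe40 (-0.20, limma adjusted p = 0.041), repressors best known from circadian rhythm. Hes7 did not pass (limma adjusted p = 0.81), and Hes2 had at most 4 counts in any library. Of the 9 receptor and ligand genes, Notch1 rose (log2 fold change 1.22, limma adjusted p = 0.0031), Notch2 (-0.82) and Jag1 (-0.40) fell, and the other 6 did not pass. Among 23 tested genes of Notch processing, sorting, and ubiquitination, 2 passed as higher and 4 as lower. The 1 called gene there was Dtx1, which encodes a Notch-binding ubiquitin ligase, with counts of 9, 2, and 3 in LNA Control, while LNA Malat1 gave 22, 10, and 15 (log2 fold change 1.69, limma adjusted p = 0.017). Dtx1 reached the minimum mean of 5 only through its LNA Malat1 counts. Among the 1562 genes with a mean from 10 to below 20, its level, 18.5% were called higher. The median log2 fold change of those genes was 0.32 and their 90th percentile 1.31.

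Heart genes linked to Hey repressors showed both directions. Of 13 tested, 3 passed as higher, and all 3 were called: Efnb2, the ephrin-B2 gene of arterial cells (log2 fold change 1.42, limma adjusted p = 5.2e-07), Tbx3, a repressor of the conduction system (1.49, limma adjusted p = 0.00035), and Myl2, a ventricular myosin light chain gene (0.66, limma adjusted p = 0.0016). Over all genes tested, 8.00% were called higher, and the share was 19.6% at the level of Tbx3, a mean from 20 to below 50. Efnb2 stood at 77, 89, and 85 counts in the LNA Control libraries and at 244, 216, and 215 in those of LNA Malat1, with no overlap. Another 4 passed as lower, each by less than 1.5-fold, the transcription factor genes Gata4 (-0.21), Gata6 (-0.35), Tbx5 (-0.22), and Hand2 (-0.30). Of the other transcription factor genes of the list, Tbx3 rose as given, and Nkx2-5 (0.0057), Tbx20 (-0.030), and Tbx2 (0.37) did not pass. Myl7, an atrial myosin light chain gene, stood at 24, 18, and 30 counts in the LNA Control libraries and at 32, 20, and 25 in those of LNA Malat1. Of the Id genes and E proteins, which pair with bHLH factors, all 5 tested passed the adjusted p, as did 28.3% of all genes tested. Of these 5, 3 were higher and 2 lower, and the E proteins were among both. Id3 (0.54) and the E protein gene Tcf4 (0.43) rose and Tcf3 (-0.25) fell, each by less than 1.5-fold. Past that minimum, Id2 rose (0.62, limma adjusted p = 0.0013) and Tcf12 fell from 1067, 1148, and 1180 to 591, 604, and 617 (-0.90, limma adjusted p = 3e-07).

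**Figure D4:**
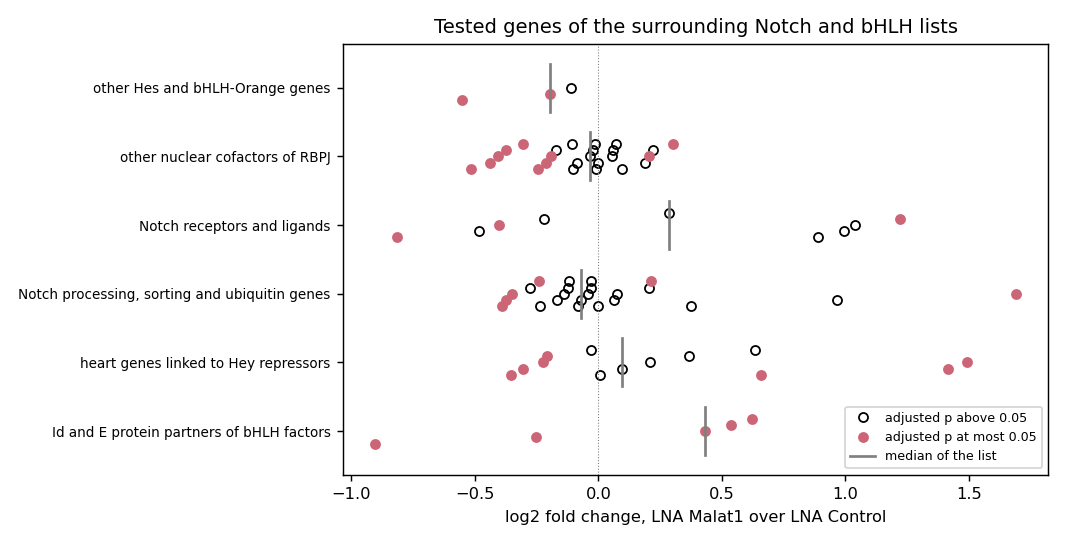
Log2 fold change of LNA Malat1 over LNA Control (horizontal axis) for the tested genes of the 6 surrounding lists (rows); each circle is 1 gene, filled red if it passed the adjusted p and open otherwise, and the grey line is the median of the list. The medians run from -0.20 for other Hes and bHLH-Orange genes to 0.43 for Id and E protein genes, and in the row of nuclear cofactors no gene reaches the 1.5-fold minimum.

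Markers of other cell types were read beside Hey2, since Hey genes are also expressed in vessels, and in bulk RNA fewer cells of a type cannot be told apart from less RNA per cell. The ventricular list, of which Myl2 made up most, summed to 62 to 71 in LNA Control against 97 to 119 after silencing. Myl3 (0 to 3) and Myh7 (0 to 4) were near 0 and Irx4 was not analysed here, so this sum follows Myl2 alone. The atrial list, mostly Tnnt2 and Actc1, which are not confined to atrial muscle, summed to 1146 to 1183 and 1225 to 1267. Of 6 endothelial markers 2 were measured, and their summed counts were 19 to 28 in LNA Control, against 32 to 35 in LNA Malat1. Pecam1 had 4, 10, and 1 counts in LNA Control, against 17, 8, and 9 in LNA Malat1, and Tek had 17 to 26 over all libraries, while the defining markers Cdh5, Kdr, Emcn, and Tie1 were not analysed here. The 4 smooth muscle markers summed to 1512 to 1678 and 1553 to 1701, and 4 of 5 fibroblast markers, led by Col1a1 and Col3a1, to 5304 to 5910 and 4683 to 4816. Of the 4 leukocyte markers 2 were measured, Cd68 and Cd3e, with sums of 14 to 25 and 36 to 47. Cd68 made up most of these sums, Cd3e had 0 to 3 counts in LNA Control and 5 to 9 in LNA Malat1. Ptprc and Adgre1 were not analysed here. The part of such cells and of these shifts in the difference in Hey2 was not tested.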

How the data were processed

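Total RNA of 3 LNA Control and 3 LNA Malat1 HL-1 samples was sequenced with a stranded kit. The authors trimmed reads with Trimmomatic 0.39, aligned them to mm10 (Ensembl release 101) with STAR 2.7.7a, counted reads on exons with featureCounts 1.6.5, dropped reads assigned to more than 1 gene or place, and used DESeq2 1.30.0. The deposited values are a score, the count normalized by 1 factor per library and rounded, so tests for raw counts were not used. Those factors, and with them whole reads, were worked back from the rounding pattern of low values. Genes were tested with limma 3.58.1 (R 4.3.3) on log2(normalized count + 1), the prior variance following the mean, two-sided, and Benjamini-Hochberg adjustment, a method checked on simulated data. The simulated libraries had no shift at low counts. Changes as small as that of Maml2, and changes in the lowest genes, were not part of that check. Ratios were tested with scipy 1.17.1. Exonic length was taken from GENCODE M21 and promoters from RefSeq (7 of 10 genes matched).

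The genes and lists were chosen with earlier results of these data known. By the rule, Malat1, the 9 genes, the 3 likest genes of those that passed, called list members, and cofactors, receptors, and ligands past the adjusted p are named. Other genes with values were chosen after these were seen. Alternatives were a replicate block, pseudocounts of 0.1 and 5, 3 scalings, voom weights, other filters and fold thresholds, LNA Malat1 replicates 1 and 3 as 1 sample, and leaving out each library.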

Additional observations from a re-analysis of the deposited data

How the results depend on the processing

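Of the 9 genes, 1 was called in the reported fit, 0 with a minimum mean of 50 (Hey1, Hey2, Heyl, and Nrarp lie below it, and 5 genes were tested), 2 without the fold change minimum, and 1 to 2 with each library left out, the second being Nrarp without LNA Control replicate 3. Over all genes, 1709 were called, 666 with a minimum mean of 50, 4426 without the fold change minimum, 841 with a 2-fold minimum, and 291 under a limma test against 1.5-fold. With each library left out 1222 to 2015 were called. Quantile normalization called 770 higher and 696 lower, 52.5% higher against 73.3%, and with a minimum mean of 50 it was 47.6%. A 2-fold minimum gave 88.2% and no minimum 50.4%. Rbpj had a log2 fold change of -0.023 without LNA Control replicate 2, the lowest of -0.023 to 0.10 with each library left out, and the cause was not tested. Libraries of the same number deviated together only weakly (correlations of 0.086, 0.182, and 0.083). Each of these was still higher than any between libraries of different number (-0.189 to 0.046), and the reported fit has no replicate block. With the replicate block, 1739 genes and 1 of the 9 were called, Hey2 (limma adjusted p = 0.00029). Malat1 stayed called in all 16 alternative fits, but not with a 2-fold minimum or in the test against 1.5-fold (limma adjusted p = 0.178). Depth limits Hey1 and Heyl, which rest on 12 to 33 reads per group.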
